A study of Rattus norvegicus with 8 samples.

Results

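The 6 genes described here encode transporters and an enzyme of the blood vessels and coverings of the brain: Slc2a1, Slc19a3, Slco1a4, Slco1c1, Slc6a13 and Car4. They were measured in the habenula, a small epithalamic region of the brain, in 4 male Sprague-Dawley rats restrained in plastic film envelopes for 2 hours a day over 14 days and in 4 male Sprague-Dawley rats left in the home cage without a stressor. The labels used here state no age. Each rat gave 1 Affymetrix whole-transcript array of total RNA, and levels are log2 intensities. The genes were picked by name, as carriers of glucose, thiamine, organic anions and GABA and as a capillary enzyme, from a table of 379 probe sets, 283 of them with a single gene symbol. Each of the 6 had 1 probe set: 10871521 for Slc2a1, 10929450 for Slc19a3, 10867033 for Slco1a4, 10859511 for Slco1c1, 10858374 for Slc6a13 and 10737047 for Car4.

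The table itself had been chosen on these 8 arrays. Its p-values, as listed in the authors' deposited table, end at 0.0499, and its log2 differences between the groups begin at a size of 0.26; the members of the set were picked from it with their differences known. Group differences below are therefore a description, with no test. In the authors' deposited table Slc6a13 lay close to the limit of p (0.0484), and Slc2a1 and Car4 lay close to the limit of size (0.27 and -0.27). Genes just outside those limits are not analysed here.

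The endothelial cells of brain capillaries are sealed by tight junctions, so water-soluble nutrients, hormones and waste cross them on carriers that belong to the solute carrier (SLC) families. Slc2a1 encodes GLUT1, the main glucose carrier of the barrier, and Slc19a3 a thiamine (vitamin B1) transporter. Slco1a4 and Slco1c1 encode organic anion transporting polypeptides, of which the Slco1c1 protein carries the thyroid hormone thyroxine and the Slco1a4 protein a broad range of organic anions, bile acids and drugs among them. Slc6a13 encodes the GABA transporter GAT-2, found in brain mainly in the meninges, and Car4 a carbonic anhydrase anchored on the outer face of capillary endothelium, where it interconverts carbon dioxide and bicarbonate.

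Sequences around the gene's start, from RefSeq (build GRCr8), were at hand for 4 of the 6 genes, the pair that was higher in stressed rats (Slc2a1 and Slc19a3) and Slco1a4 and Car4, which were lower. They are printed so that the starts of genes differing in direction can be read side by side, each from 250 bases before to 50 bases after the gene's start, 5′ to 3′ on the gene's strand. Capitals mark ACGTG or its reverse complement, a form of the core that hypoxia-inducible factors recognise. Other forms of that core were not searched and are not marked. The windows are chr5:138002272-138002571 on the plus strand for Slc2a1, chr9:91747080-91747379 on the minus strand for Slc19a3, chr4:176495797-176496096 on the minus strand for Slco1a4 and chr10:70325108-70325407 on the plus strand for Car4.
Slc2a1: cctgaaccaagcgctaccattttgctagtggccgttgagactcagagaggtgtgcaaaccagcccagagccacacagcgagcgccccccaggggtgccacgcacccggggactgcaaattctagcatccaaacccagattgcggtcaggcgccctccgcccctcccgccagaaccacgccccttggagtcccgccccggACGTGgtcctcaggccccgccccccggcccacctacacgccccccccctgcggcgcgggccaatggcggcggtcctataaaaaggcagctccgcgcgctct
Slc19a3: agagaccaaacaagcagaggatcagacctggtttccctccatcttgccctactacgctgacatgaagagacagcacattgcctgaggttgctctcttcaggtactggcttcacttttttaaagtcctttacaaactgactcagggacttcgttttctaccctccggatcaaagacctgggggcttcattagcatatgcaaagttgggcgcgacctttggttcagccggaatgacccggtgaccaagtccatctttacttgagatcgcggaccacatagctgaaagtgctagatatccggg
Slco1a4: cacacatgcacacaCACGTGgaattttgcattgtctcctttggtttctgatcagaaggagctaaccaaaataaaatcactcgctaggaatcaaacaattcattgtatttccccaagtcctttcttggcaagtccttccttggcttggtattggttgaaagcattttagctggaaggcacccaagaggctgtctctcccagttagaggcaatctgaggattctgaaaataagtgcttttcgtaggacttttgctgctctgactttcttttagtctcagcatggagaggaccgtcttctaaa
Car4: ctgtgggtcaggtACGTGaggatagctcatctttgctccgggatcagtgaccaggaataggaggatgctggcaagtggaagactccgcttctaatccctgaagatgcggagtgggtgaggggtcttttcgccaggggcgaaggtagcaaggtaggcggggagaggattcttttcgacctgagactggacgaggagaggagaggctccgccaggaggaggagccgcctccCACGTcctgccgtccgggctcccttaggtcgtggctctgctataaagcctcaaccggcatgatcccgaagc

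This form, ACGTG, searched on both strands, was in 3 of these 4 windows and in 19.3% of the 33469 gene-start windows of that length from RefSeq. In Slc2a1 it began 51 bases before the gene's start. Car4 held it at 2 places, 237 and 21 bases before the start. The Slco1a4 match is a single site read on both strands, since it is the palindrome CACGTG, the E-box that clock and other helix-loop-helix factors recognise, which 6.42% of all windows held. Slc19a3 had no match. The half-site of the glucocorticoid receptor, AGAACA on either strand, was in 0 of the 4 windows and in 20.7% of all windows. The full glucocorticoid response palindrome, which is that half-site, 3 bases of any kind and its reverse complement, was in 0 of the 4 and in 0.0149% of all. These matches describe letters in a short window and were not tested against binding. The GC content of the windows was 68.3% for Slc2a1, 59.7% for Car4, 49.7% for Slc19a3 and 43.0% for Slco1a4, beside a median of 51.7% over all windows.

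The 6 genes did not all go the same way. The carriers of glucose and thiamine were higher in the stressed rats, and the 2 organic anion carriers, the GABA carrier and the carbonic anhydrase were lower. In 5 of the 6 genes, 2 higher and 3 lower, no stressed rat overlapped with a non-stress rat. Across the whole table limma's adjusted p was under 0.05 for 100% of probe sets, 44.6% of probe sets being higher and 55.4% lower, and 83.4% of probe sets had groups without overlap (36.9% higher and 46.4% lower). Nothing is read from the members' counts beside these shares. The median difference of the 6 genes was -0.28 on the log2 scale, as was the median over all 379 probe sets. The table holds no difference under 0.26 in size and more lower than higher, so both medians fall near that limit and nothing is read from their match. Over the probe sets that were higher the median was 0.32, and over those that were lower -0.34. In a dissected tissue, fewer cells of a type and less RNA per cell cannot be told apart.

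**Figure D1:**
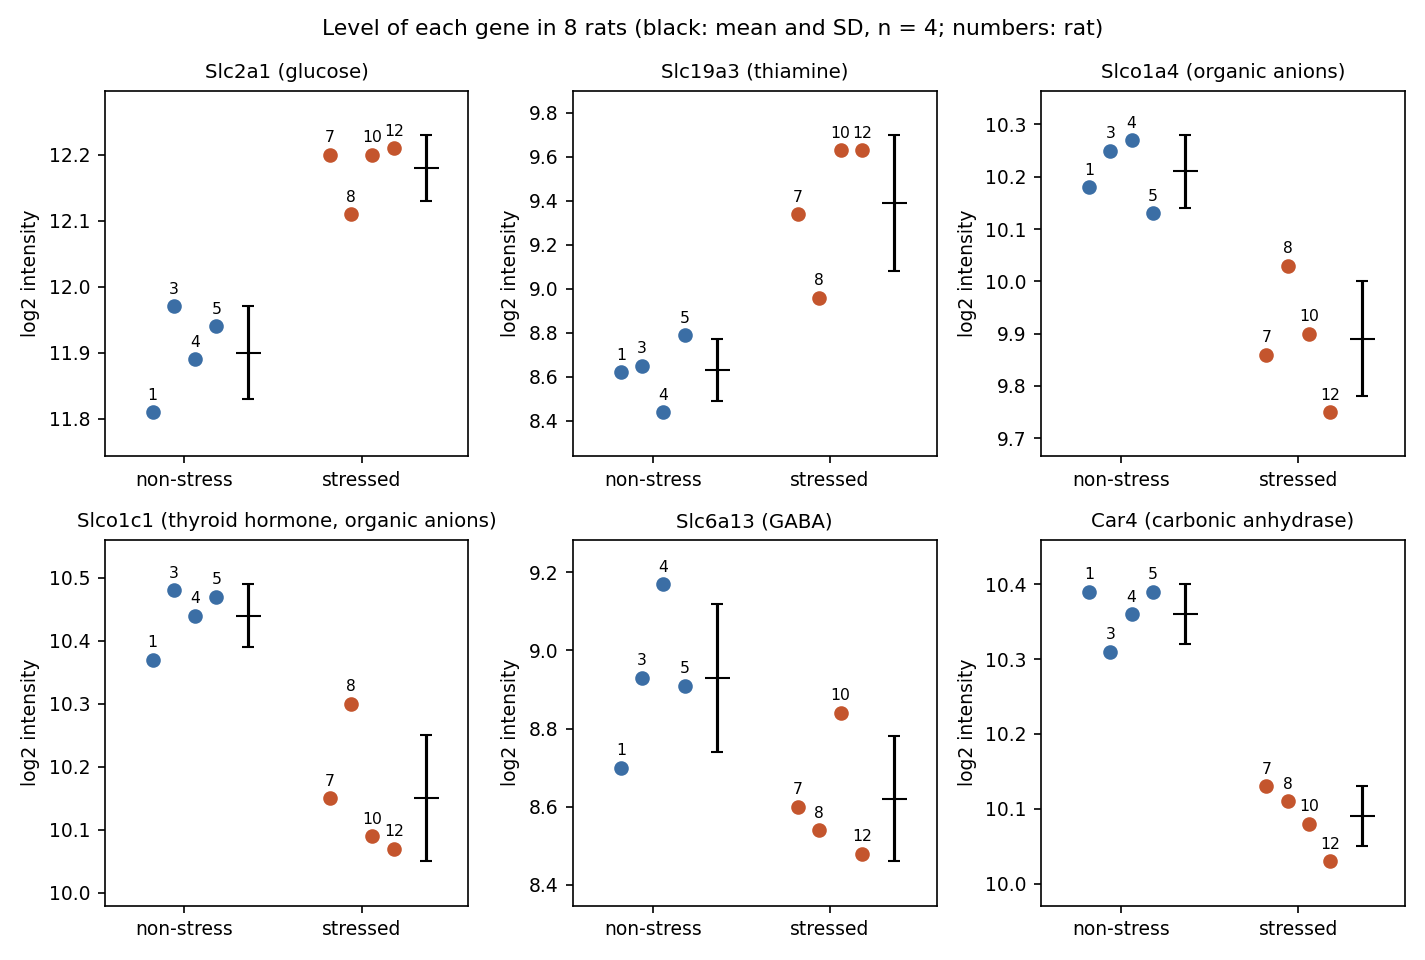
Log2 intensity of each of the 6 genes (vertical axes, each with its own range) in the non-stress and stressed rats. Points are rats, numbered as in the labels, and black bars are the mean and SD of 4 rats. The stressed rats lie above the non-stress rats for Slc2a1 and Slc19a3 and below them for Slco1a4, Slco1c1 and Car4, and the groups overlap for Slc6a13.

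Slc19a3, the thiamine transporter, had the largest difference of the 6. Its log2 level was 8.62, 8.65, 8.44 and 8.79 in non-stress rats 1, 3, 4 and 5, and 9.34, 8.96, 9.63 and 9.63 in stressed rats 7, 8, 10 and 12. Every stressed rat was above every non-stress rat, and rat 8 came nearest to the non-stress range, with 0.17 between it and non-stress rat 5. The means were 9.39 ± 0.31 against 8.63 ± 0.14 (SD, n = 4 each), a difference of 0.76 ± 0.13 (limma's standard error) or 1.70-fold. By size it stood at place 11 among the 379 differences, while the other 5 genes stood at places 204 to 330. Without stressed rat 8 the difference was 0.91.

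Slc2a1, the glucose carrier, differed by much less, but with little spread among rats. The non-stress rats were at 11.81, 11.97, 11.89 and 11.94, and stressed rats 7, 8, 10 and 12 at 12.20, 12.11, 12.20 and 12.21. Stressed rats 7, 10 and 12 were nearly equal, and rat 8 was again the lowest of its group. The means were 12.18 ± 0.05 and 11.90 ± 0.07 (SD, n = 4 each), a difference of 0.27 ± 0.08 or 1.21-fold. This value depends on how the arrays are scaled. Centring each array on the table's median raised it to 0.32. Quantile normalization over the 379 probe sets reduced it to 0.15, and limma then no longer called it over the table. That scaling moved the median difference of the table from -0.28 to -0.17 and the mean difference by 0.03. The mean level of Slc2a1 stood above that of 99.2% of the table's probe sets. Why its difference became smaller was not tested.

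The organic anion carriers were both lower. Slco1a4 was at 10.18, 10.25, 10.27 and 10.13 in the non-stress rats and at 9.86, 10.03, 9.90 and 9.75 in stressed rats 7, 8, 10 and 12. The groups were 0.11 apart at their nearest rats, stressed rat 8 and non-stress rat 5. Its means were 9.89 ± 0.11 and 10.21 ± 0.07 (SD, n = 4 each), a difference of -0.32 ± 0.08, so that non-stress rats were 1.25-fold higher. Whether its probes also detect the closely related Slco1a genes was not tested.

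Slco1c1, the thyroxine carrier, was at 10.37, 10.48, 10.44 and 10.47 in the non-stress rats and at 10.15, 10.30, 10.09 and 10.07 in the stressed rats. Stressed rat 8 was the highest of its group here too, 0.08 below non-stress rat 1. The difference was -0.29 ± 0.08 (means 10.15 ± 0.10 and 10.44 ± 0.05, SD, n = 4 each), or 1.22-fold. After quantile normalization it was -0.18, and limma no longer called it over the table. In RefSeq's annotation Slco1c1 and Slco1a4 lie near each other on chromosome 4, with 1 protein-coding gene, Slco1b2, between them; Slco1b2 was not in the table.

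Slc6a13, the GABA carrier, was the only one of the 6 whose groups overlapped. The non-stress rats were at 8.70, 8.93, 9.17 and 8.91 and the stressed rats at 8.60, 8.54, 8.84 and 8.48. Stressed rat 10 was above non-stress rat 1, and the spread within groups was the widest relative to the difference. The means were 8.62 ± 0.16 and 8.93 ± 0.19 (SD, n = 4 each), a difference of -0.31 ± 0.10, or 1.24-fold, and it ranged from -0.39 to -0.23 when each rat was left out in turn.

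Car4 had the tightest groups. It was at 10.39, 10.31, 10.36 and 10.39 in the non-stress rats and at 10.13, 10.11, 10.08 and 10.03 in the stressed rats. The groups were 0.17 apart, and stressed rat 8 was not at the edge of its group. The means were 10.09 ± 0.04 and 10.36 ± 0.04 (SD, n = 4 each), and the difference was -0.27 ± 0.07, or 1.21-fold.

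**Figure D2:**
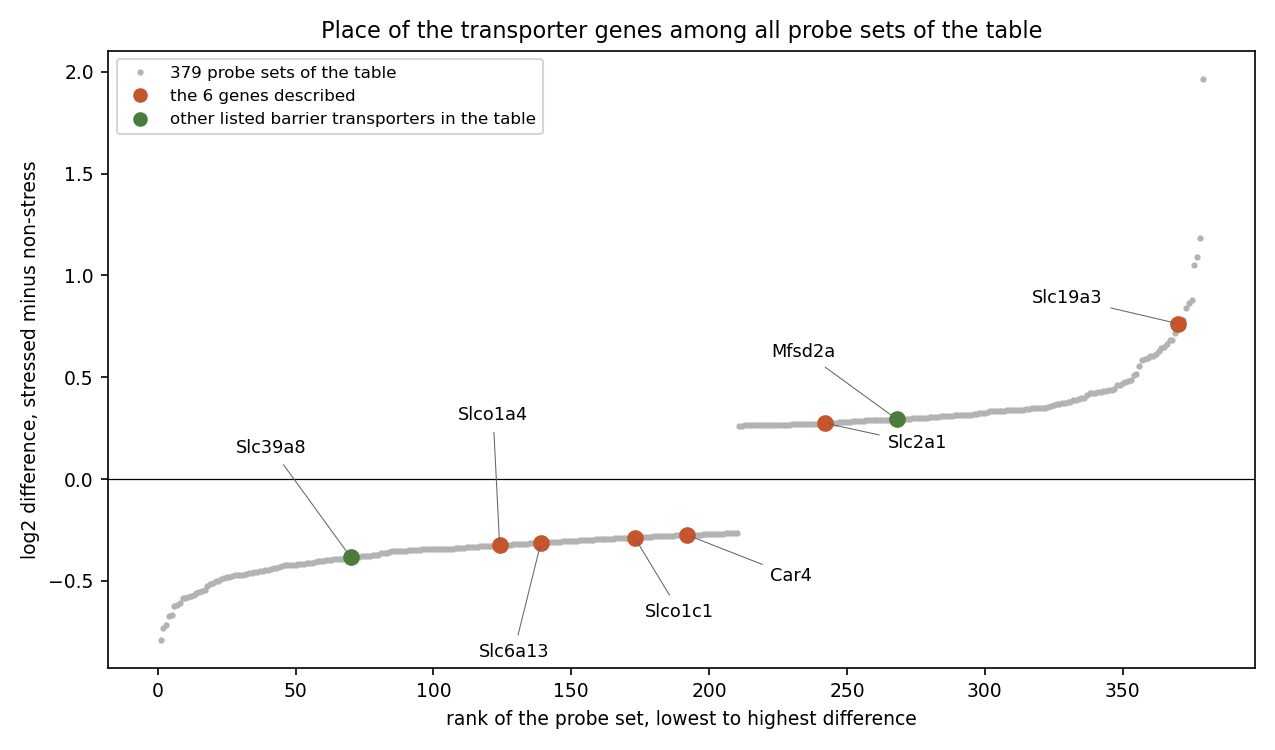
Log2 difference, stressed minus non-stress, of the 379 probe sets (vertical axis) against their rank from lowest to highest (horizontal axis). The 6 genes are the red points, and Mfsd2a and Slc39a8, the other listed barrier transporters in the table, the green ones. No probe set lies within 0.26 of zero because of how the table was chosen, and Slc19a3, at 0.76, is the only one of the 6 far from that limit.

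Other carriers of the barrier were looked up from a list of 41. The table held 6 of them, 3 higher and 3 lower. Their median difference was -0.01, a size that the table's limit of 0.26 shuts out, so it describes no single gene. Of the 6, 4 are genes described above. The others were Mfsd2a, the barrier's carrier of lysophospholipids that hold docosahexaenoic acid, and Slc39a8, which takes up zinc and manganese. Mfsd2a was at 10.07, 10.26, 10.02 and 10.16 in the non-stress rats and at 10.44, 10.30, 10.52 and 10.44 in stressed rats 7, 8, 10 and 12, a difference of 0.29 ± 0.08. Stressed rat 8 was the lowest of its group, 0.04 above non-stress rat 3. Slc39a8 was at 8.51, 8.31, 8.30 and 8.29 in the non-stress rats and 7.98, 7.94, 7.95 and 8.02 in the stressed rats, a difference of -0.38 ± 0.08. Among 19 glucose and thiamine transport genes the table held Slc2a1 and Slc19a3 alone, among 7 GABA and related carriers Slc6a13 alone, among 19 organic anion carriers Slco1a4 and Slco1c1 alone, and among 16 carbonic anhydrases Car4 alone. A listed gene not matched here may have missed the limits for entering the table, or may not have been measured. It may also be under one of the 96 probe sets with several symbols or none.

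Markers of the source cells were looked up, but a table chosen by group difference cannot test which cells were present. Of 24 endothelial genes the table held 2, which went opposite ways: Apold1, which endothelium induces early after stimulation, was higher (7.81 ± 0.40 against 6.95 ± 0.11, SD, n = 4 each) and Cd34, a surface sialomucin of endothelium, lower (9.24 ± 0.18 against 9.59 ± 0.11, SD, n = 4 each). It held 0 of 12 mural, 0 of 15 meningeal and fibroblast, 0 of 12 choroid plexus and 0 of 10 astrocyte markers, so the levels of these cell types' markers are not analysed here. Markers of medial habenula neurons were in the table with 8 of 11, all 8 lower, where 55.4% of all probe sets were lower. Their mean centred log2 level was 0.06 to 0.57 in the non-stress rats and -0.30 to -0.24 in the stressed rats. Every probe set had been chosen for a group difference on these arrays, and the list with earlier results known. The separation of the groups in this mean is therefore a description and no test. Of 5 lateral habenula markers the table held 2, the orphan receptor gene Gpr151, which was lower (-0.42), and the secreted peptide precursor gene Vgf, which was higher (0.30). The within-group correlations of the 6 genes with the medial habenula mean are given with those for glucocorticoid responsive genes.

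**Figure D3:**
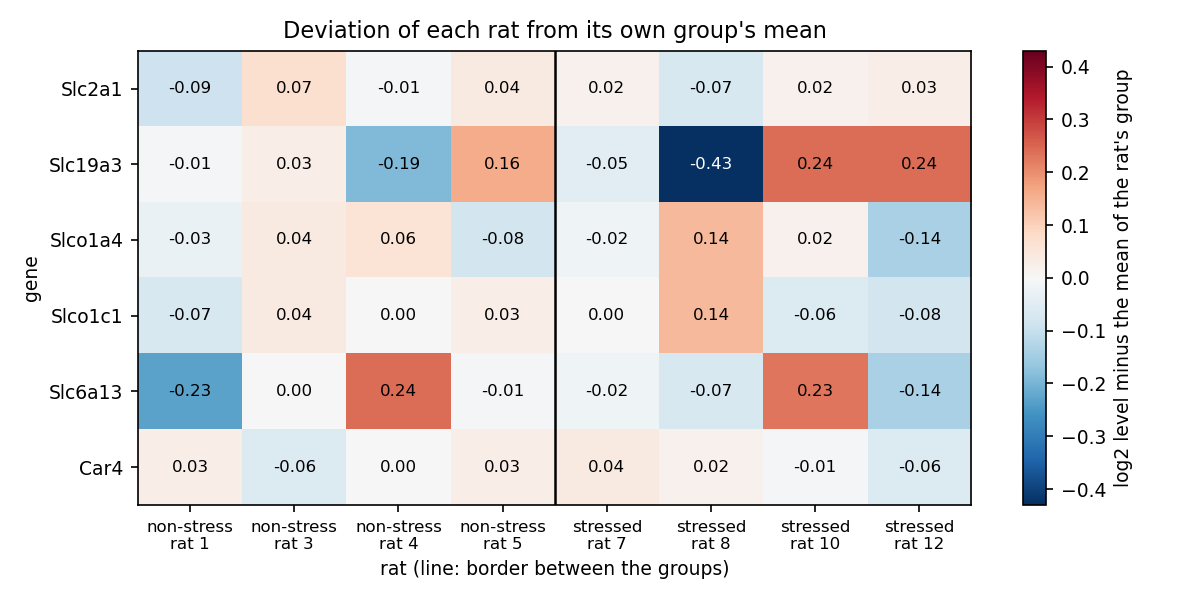
Log2 level of each gene (rows) in each rat (columns) minus the mean of that rat's own group, with the value printed in each cell. Stressed rat 8 has the largest deviation in the figure, -0.43 for Slc19a3, beside 0.14 for both Slco1a4 and Slco1c1, and the deviations of Car4 stay between -0.06 and 0.04.

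Rats of the same group also differed from each other, and for this the group means were removed. The probe sets had still been chosen for a group difference on these arrays. Each rat's deviation from its group mean was correlated between genes over the 8 rats, with an exact permutation test that reorders rats within groups. Of the 15 pairs of the 6 genes, 0 had an unadjusted p under 0.05 by Pearson's r or by Spearman's rho, and 0 had an adjusted p under 0.05; over the table's 71631 pairs of probe sets, 7.37% had an unadjusted Pearson p under 0.05, 5.74% an unadjusted Spearman p, and 0% an adjusted p by either. The 576 orders cannot give a p below 0.00174, and the smallest adjusted p of any pair in the table was 0.584, so the adjusted values do not separate pairs. The median absolute r was 0.37 among the 15 pairs and 0.37 over all pairs of the table. Of the 7 pairs whose genes differed between the groups in the same direction, 6 had a positive r. Of the 8 pairs whose genes differed in opposite directions, 6 had a negative r. The pairs share genes and rats, and these counts were not tested.

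The strongest of the 15 relations joined the thiamine carrier to the organic anion carriers. Slc19a3 and Slco1a4 deviated in opposite senses, with r = -0.80 (exact permutation p = 0.0608, adjusted p = 0.675 over all pairs of probe sets) and rho = -0.64 (exact permutation p = 0.153, adjusted 0.817). Without stressed rat 8 r was -0.55, and without stressed rats 8 and 10, the farthest from the median of Slc19a3, it was -0.89. Slc19a3 and Slco1c1 had r = -0.75 (exact permutation p = 0.101, adjusted 0.699) and rho = -0.50 (exact permutation p = 0.304, adjusted 0.850), but r was -0.17 without stressed rat 8 and -0.12 without stressed rats 8 and 10. Slco1a4 and Slco1c1 had r = 0.69 (exact permutation p = 0.153, adjusted 0.732) and rho = 0.62 (exact permutation p = 0.146, adjusted 0.817), and r was 0.24 without stressed rat 8 and -0.03 without stressed rats 8 and 12. Both relations of Slco1c1 thus rest on rat 8.

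**Figure D4:**
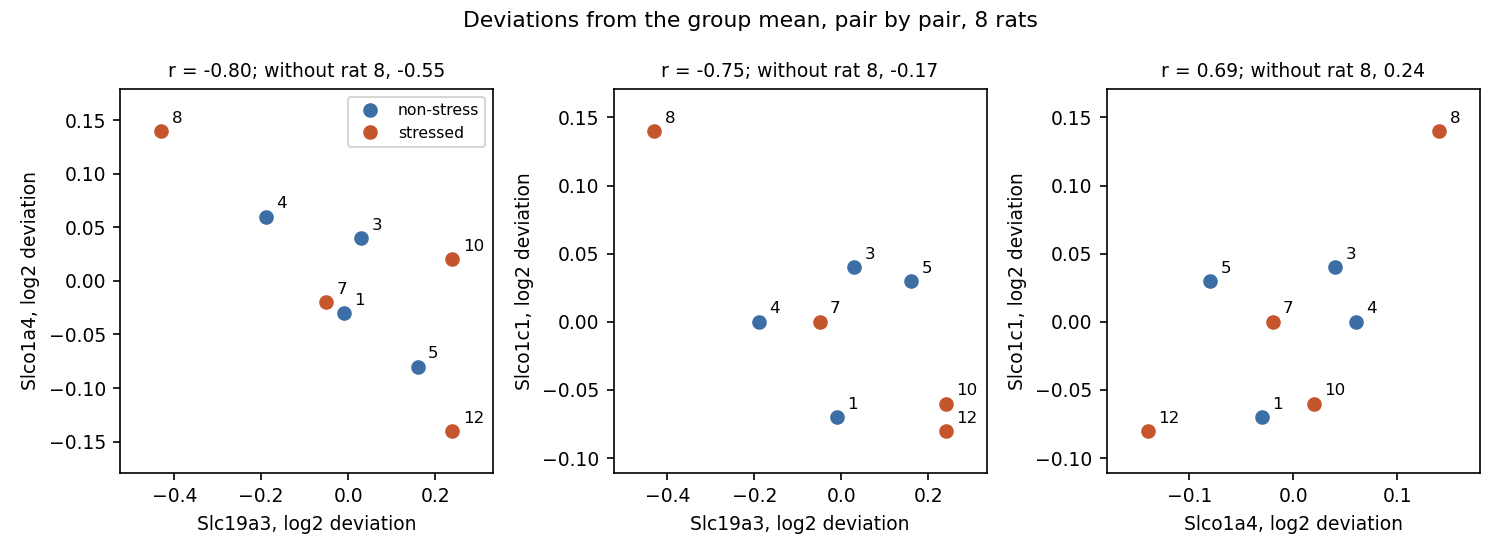
Deviation of each rat from its group mean, in log2 units, for 3 pairs of genes; points are rats, blue for non-stress and red for stressed, numbered as in the labels. Stressed rat 8 stands alone at a corner of each panel, and r without it goes from -0.80 to -0.55, from -0.75 to -0.17 and from 0.69 to 0.24.

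Slc2a1 and Slc19a3 had r = 0.61 (exact permutation p = 0.0868, adjusted 0.690) and rho = 0.62 (exact permutation p = 0.0677, adjusted 0.804), with r = 0.30 without stressed rat 8 and 0.60 without that rat and non-stress rat 1. After quantile normalization that r was 0.12. The other 11 pairs had r between -0.52 and 0.37 on the values as deposited, and several depended on the scaling: Car4 with Slco1c1 went from 0.27 to 0.83 after quantile normalization (exact permutation p = 0.0451, adjusted 0.783) and to 0.68 after centring each array on the table's median, and Car4 with Slco1a4 from 0.19 to 0.69 and 0.57. Slc6a13 with Slc2a1 went from 0.35 to 0.58 after median centring, and Slc6a13 with Slco1a4 from 0.37 to 0.73 without stressed rat 8.

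Stressed rat 8 was the lowest of its group for Slc2a1 and Slc19a3 and the highest for Slco1a4 and Slco1c1, and was at neither edge for Slc6a13 and Car4. The same rat had the lowest mean centred level of 8 glucocorticoid responsive genes among the stressed rats (0.14, against 0.52 to 0.61 in the other 3; non-stress rats -0.50 to -0.40). These 8 are Zbtb16, Pdk4, Sgk1, Sult1a1, Nfkbia, Fkbp5, Tsc22d3 and Klf9, a list taken from earlier results on these arrays. The list and the relations below were added after values were seen, so their p-values are a description. Within groups this mean had r = 0.86 with Slc19a3 (exact permutation p = 0.0486, rho = 0.60 with exact permutation p = 0.168), r = -0.82 with Slco1a4 (exact permutation p = 0.0417, rho = -0.62 with exact permutation p = 0.132) and r = 0.67 with Slc2a1 (exact permutation p = 0.0278, rho = 0.45 with exact permutation p = 0.135).

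These were 3 of the 6 genes. None of the 3 passed when adjusted over the 379 probe sets (exact permutation, adjusted p = 0.498, 0.484 and 0.439). Of all probe sets 0% passed, while 9.76% had an unadjusted exact permutation p under 0.05. The 379 include the 8 listed genes themselves, and nothing is read from 3 of 6 beside that share. Without stressed rat 8 the values of r were 0.45, -0.73 and 0.55, none with an unadjusted exact permutation p under 0.05, and without stressed rats 8 and 12 they were 0.32, -0.46 and 0.69. Slco1c1 had r = -0.78 (exact permutation p = 0.172, rho = -0.52 with exact permutation p = 0.241), and 0.22 without stressed rat 8. Slc6a13 had r = 0.14 (exact permutation p = 0.727) and Car4 r = -0.33 (exact permutation p = 0.561). With the medial habenula mean, r lay between -0.56 for Car4 and 0.23 for Slc2a1, with unadjusted exact permutation p-values of 0.128 to 0.925, where 17.2% of all probe sets had an unadjusted p under 0.05. These 12 relations with the 2 means were computed beside the 15 pairs, 27 in all.

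The genes whose deviations were most like those of each member, by Pearson's r over the 8 rats, were the following. Slc2a1 was nearest to Klf4, a zinc finger transcription factor of epithelia and endothelium (r = 0.92), and to the transcriptional repressor Bcl6 (r = 0.90). Without non-stress rat 1 and stressed rat 8 these values were 0.32 and 0.56. Slc19a3 was nearest to Sla, a Src-like adaptor of immune cells (r = 0.91), and to Pdk4, a kinase that restrains pyruvate oxidation (r = 0.89, and 0.61 without stressed rat 8). Slco1a4 was nearest to Tnfsf10, which encodes the death ligand TRAIL (r = 0.95), and to the olfactory receptor gene Or1j1 (r = 0.94). Or1j1 was higher in stressed rats (0.27 ± 0.08) while Slco1a4 was lower. Its level was low, with means of 6.0 in stressed and 5.73 in non-stress rats.

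Slco1c1 was nearest to the endothelial gene Cd34 (r = 0.85, and 0.58 without stressed rat 8) and to Arhgap25, a GTPase activating protein gene (r = 0.85, and 0.44 without stressed rat 8). Slc6a13 was nearest to Ddn, which encodes dendrin of neuronal dendrites (r = 0.94), and to the steroid sulfate carrier Slc10a6 (r = 0.92), both of which were higher in stressed rats (0.29 ± 0.09 and 0.35 ± 0.08) while Slc6a13 was lower. Car4 was nearest to the olfactory receptor gene Or5p69 (r = 0.85) and to Ly49i2 (r = 0.80), a killer cell lectin-like receptor gene. Or5p69 was higher in stressed rats (0.29 ± 0.09) while Car4 was lower. Both neighbours had low levels, with means in stressed and non-stress rats of 6.25 and 5.95 for Or5p69 and 4.81 and 5.08 for Ly49i2. These 12 were picked as the highest values of r for each member; their rho was 0.69 to 0.98, their unadjusted exact permutation p-values were 0.00174 to 0.0434, those of rho 0.00347 to 0.101, and the p of r adjusted over all pairs of the table was 0.584 to 0.655. Without the 2 rats farthest from the member's median their r was 0.32 to 0.99.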

How the data were processed

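Habenula RNA of 8 rats was measured on Affymetrix whole-transcript arrays, labelled with biotin per the labels' protocols. The authors deposited log2 intensities, 1 per probe set and array; how they corrected background, summarized probes and normalized is not given in the sources used here. Both tables agree exactly (largest gap 0). The authors' deposited p-value is unadjusted and equals an unequal-variance p to within 1.64e-15. Array medians were 8.60 to 8.77, and the number of arrays limits the precision. Symbols came from the platform's annotation (283 probe sets with 1 symbol, 5 with several, 91 with none), and all 283 matched RefSeq by gene ID.

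Differences and standard errors came from limma 3.58.1 (R 4.3.3; lmFit, then eBayes; 4 against 4 rats, no covariates), with Benjamini-Hochberg adjustment over all 379 probe sets. Correlations used deviations from group means, exact permutation within groups (2-sided) and adjustment over all pairs. Both steps were tested on simulated data. A mean over a gene list took each gene's log2 value minus its mean over 8 arrays. The labels number the rats but do not say how they were housed or processed in batches. The genes named are the 6 members, the 2 single-symbol probe sets with the highest positive r to each, and list genes in the table. Members and lists were chosen with earlier results of these data known; the glucocorticoid list and the relations with the 2 list means were added after values were seen. Other scalings, a filter on dim probe sets, other tests and leaving out rats were tried.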

Additional observations from a re-analysis of the deposited data

Results flagged for a closer look

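Of 76 group values of 38 genes (the 6 genes, the genes nearest to them and the list genes in the table), 5 had 1 rat standing apart from the other 3 of its group; chance gives about 1 in 20. Slc2a1 was at 12.11 in stressed rat 8, against 12.20 to 12.21 in the other stressed rats. Stressed rat 8 also stood apart for Sgk1, a glucocorticoid induced kinase, at 11.37 against 12.13 to 12.20, and for the NF-kappa-B inhibitor Nfkbia at 9.64 against 10.10 to 10.11. Slc39a8 was at 8.51 in non-stress rat 1, against 8.29 to 8.31. In stressed rat 12 the orphan receptor gene Gpr149 was at 8.82, while the other stressed rats were at 8.58 to 8.60.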

How the results depend on the processing

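Each of the 6 differences kept its direction under the 13 alternatives tried for it, but most of these could not have reversed it. The series matrix values and the filter on dim probe sets leave a gene's own difference as it is. Where the groups did not overlap, as in all but Slc6a13, leaving out a rat or taking group medians could not reverse the direction either. After quantile normalization over the table Slc2a1 was at 0.15, Slco1c1 at -0.18 and Car4 at -0.20. When each array was centred on the table's median, Slc2a1 was at 0.32 and Car4 at -0.23. Limma called 4 of the 6 over the table after quantile normalization, not Slc2a1 and Slco1c1, and 336 of 379 probe sets. Only the 379 chosen probe sets entered that normalization, 210 of them lower and 169 higher. The cause of the smaller values after it was not tested. Leaving out each rat in turn kept 378 to 379 probe sets called, and the filter on dim probe sets left 284, all called. The table was chosen by p on these same arrays, so these calls are a description and no test of the 6 genes. The adjusted exact permutation p of the 15 pairs was 0.573 or more under every alternative. With so few orders of the rats, a count of 0 pairs passing each time says nothing about stability. Unadjusted, where 0 of 15 pairs had an exact permutation p under 0.05 as deposited, Slc19a3 with Slco1a4 had 0.0486 after quantile normalization and 0.0208 without stressed rat 10, Slco1c1 with Car4 0.0451 after quantile normalization, and Slc2a1 with Slc19a3 0.0417 without non-stress rat 1 and also without non-stress rat 4. The sign of several correlations changed, Slco1a4 with Slco1c1 (0.69) and Slc2a1 with Car4 (-0.52) among them. For Slc2a1 with Slco1c1, r went from -0.14 to 0.25 (quantile), 0.31 (median centring), 0.17 (Spearman) and 0.35 (without the 2 farthest rats). Slc2a1 with Car4 went to 0.10 and 0.31, and Slc6a13 with Car4 to 0.50 and 0.32, under quantile and median scaling. Slco1a4 with Car4 went to -0.05 by Spearman. Without the 2 farthest rats Slc2a1 with Slc6a13 was at -0.67, Slc19a3 with Slc6a13 at -0.57, Slco1a4 with Slco1c1 at -0.03, Slco1a4 with Car4 at -0.71 and Slco1c1 with Car4 at -0.17. Leaving out 1 rat at a time gave -0.73 to 0.01 for Slc2a1 with Slco1a4, -0.69 to 0.78 with Slco1c1 and -0.17 to 0.55 with Slc6a13. It gave -0.35 to 0.36 for Slc19a3 with Slc6a13, -0.45 to 0.43 for Slco1a4 with Car4, -0.33 to 0.34 for Slco1c1 with Slc6a13, -0.04 to 0.56 for Slco1c1 with Car4 and -0.43 to 0.13 for Slc6a13 with Car4. The cause of these changes was not tested. No paired analysis was possible because the groups share no rat numbers. Signal over background is not given in the tables, so which probe sets were near background is not analysed here.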
